A study of Rattus norvegicus with 12 samples.

Results

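Collagens are the main structural proteins of the extracellular matrix. They were followed here in heart tissue of rats through every probe set of a 1-colour oligonucleotide array that the array annotation pairs with exactly 1 gene symbol of the form Col, number, a, number. The rule found 58 probe sets for 41 genes, out of 31042 probe sets tested on the arrays. The groups were 6 failing and 6 control hearts, with 1 array for each heart as a biological replicate. By its title the study follows spontaneously hypertensive rats, an inbred strain with high blood pressure, into systolic failure. For neither group do the sources used here state the animals' age or the part of the heart taken, nor the strain of the controls. Failing hearts with captopril, alone or with butyrate, are named in the labels, but the values used here cover only these 12 hearts.

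Each collagen molecule is a triple helix of 3 chains, and each chain is encoded by its own Col gene. Fibrillar collagens (types I, II, III, V, XI, XXIV and XXVII) form the tensile fibres. In the heart these are mostly fibres of types I and III made by fibroblasts, with type V inside the fibre, where it helps set its diameter. Type IV forms the sheet of the basement membrane around cardiomyocytes and vessels, and types VII, XV and XVIII are counted with it here because they lie in or next to that sheet. Types VI, VIII and X form networks of beads or lattices. The FACIT collagens (fibril-associated collagens with interrupted triple helices, here types IX, XII, XIV, XVI, XIX, XX and XXII) attach to the surface of fibres. The remaining types, XIII, XVII, XXIII, XXV and XXVI, form the fifth class below.

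RefSeq promoter windows of assembly GRCr8 were found for 32 of the 41 genes. The 3 stretches below belong to genes the results turn on: Col4a1 and Col4a2, which share an interval and did not pass the test, Col5a2, which was called higher, and Col1a2, a chain of the main heart collagen that was not. All are written 5′ to 3′, and capitals mark matches on either strand to CCAAT, to the GC box GGGCGG or to the TATA box TATAAA.
Col4a1 and Col4a2, the whole interval of 76 bases between the start sites of these divergent genes, chr16:84885521-84885596, in the direction of Col4a1: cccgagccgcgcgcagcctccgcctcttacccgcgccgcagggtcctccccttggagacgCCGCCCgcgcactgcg
Col5a2, 250 bases before its start, chr9:55090152-55090401, minus strand: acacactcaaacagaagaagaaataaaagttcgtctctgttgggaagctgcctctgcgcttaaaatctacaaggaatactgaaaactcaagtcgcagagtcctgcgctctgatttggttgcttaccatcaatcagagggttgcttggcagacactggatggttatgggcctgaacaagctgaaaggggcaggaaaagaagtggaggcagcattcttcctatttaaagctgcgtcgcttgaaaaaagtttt
Col1a2, the first 100 of the 250 bases before its start in the table, chr4:33518307-33518406, plus strand: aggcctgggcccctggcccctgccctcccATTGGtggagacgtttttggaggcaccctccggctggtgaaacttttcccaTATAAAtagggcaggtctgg
The start the table gives for Col1a2 falls on an ATG, so the true start of transcription may lie within or near the printed stretch, and distances to that start are uncertain. The Col1a2 stretch holds CCAAT on the opposite strand and TATAAA, while the Col5a2 window holds none of the 3 motifs. Over 250 bases before the start, CCAAT was found for 9 of 32 collagen genes (28.1%), against 34.3% of 27457 genes in the table. GGGCGG was found for 18 of 32 (56.3%, against 32.4%) and TATAAA for 4 of 32 (12.5%, against 13.1%). These are counts of letters, and a missing match says only that those letters are not in the window.

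The arrays were alike in overall scale, with median intensities from 120.6 to 143.9 and Spearman correlations between 0.915 and 0.945 over their 66 pairs. The labelled tissue matched its markers: 9 of 10 listed cardiomyocyte genes were measured, all 9 among the brighter probe sets, and their summed intensity ran from 229672 to 378886 over the 12 hearts, as given by group with the other cell markers. Values are log2 intensities, and differences are failing minus control with the standard error (SE) of limma's moderated fit to all probe sets. A probe set is called brighter when its mean over all 12 arrays is at or above the median of all probe sets (6.94, an intensity of 123), which 28 collagen probe sets of 19 genes were. Dim probe sets vary far more between hearts, so calls were made within the brighter ones, at an adjusted p of 0.05. No probe set of any gene passed over all 31042.

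Collagen transcripts leaned towards failing hearts, but few passed the test. Of the 28 brighter probe sets, 24 were higher in failing hearts on average and 4 lower, where 49.9% of all brighter probe sets were higher. The 28 are not independent, since single hearts were low or high in most of them, as given below. With each probe set centred on its mean of 12 hearts, their average ran from -0.67 to 0.80 in failing hearts. In control hearts it ran from -0.59 to 0.20, so the groups overlapped. Limma called 2 of 28 higher and 0 lower, beside a background of 2.76% of 15521 brighter probe sets called higher and 1.48% called lower. The calls were for Col5a2, of type V, and Col14a1, of the FACIT class. At an unadjusted p under 0.05, 9 of the 28 were higher and 0 lower, against 13.2% and 12% of brighter probe sets. Over all 58, 12 were higher and 2 lower at an unadjusted p under 0.05, against 7.25% and 7.23% of all probe sets. The median difference was 0.47 over the 28 brighter collagen probe sets and 0.00 (-0.00022) over all brighter probe sets. Over the 58, 38 were higher on average (47.4% of all probe sets were), and the median difference was 0.32 against -0.02 over all probe sets. The lowest limma adjusted p of a collagen over all probe sets was 0.113. Leaving out 1 heart moved the background widely, from 20 to 1035 brighter probe sets called higher, lowest without Control replicate 6 and highest without Control replicate 4. In tissue RNA, more cells of a type and more RNA per cell cannot be told apart.

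**Figure D1:**
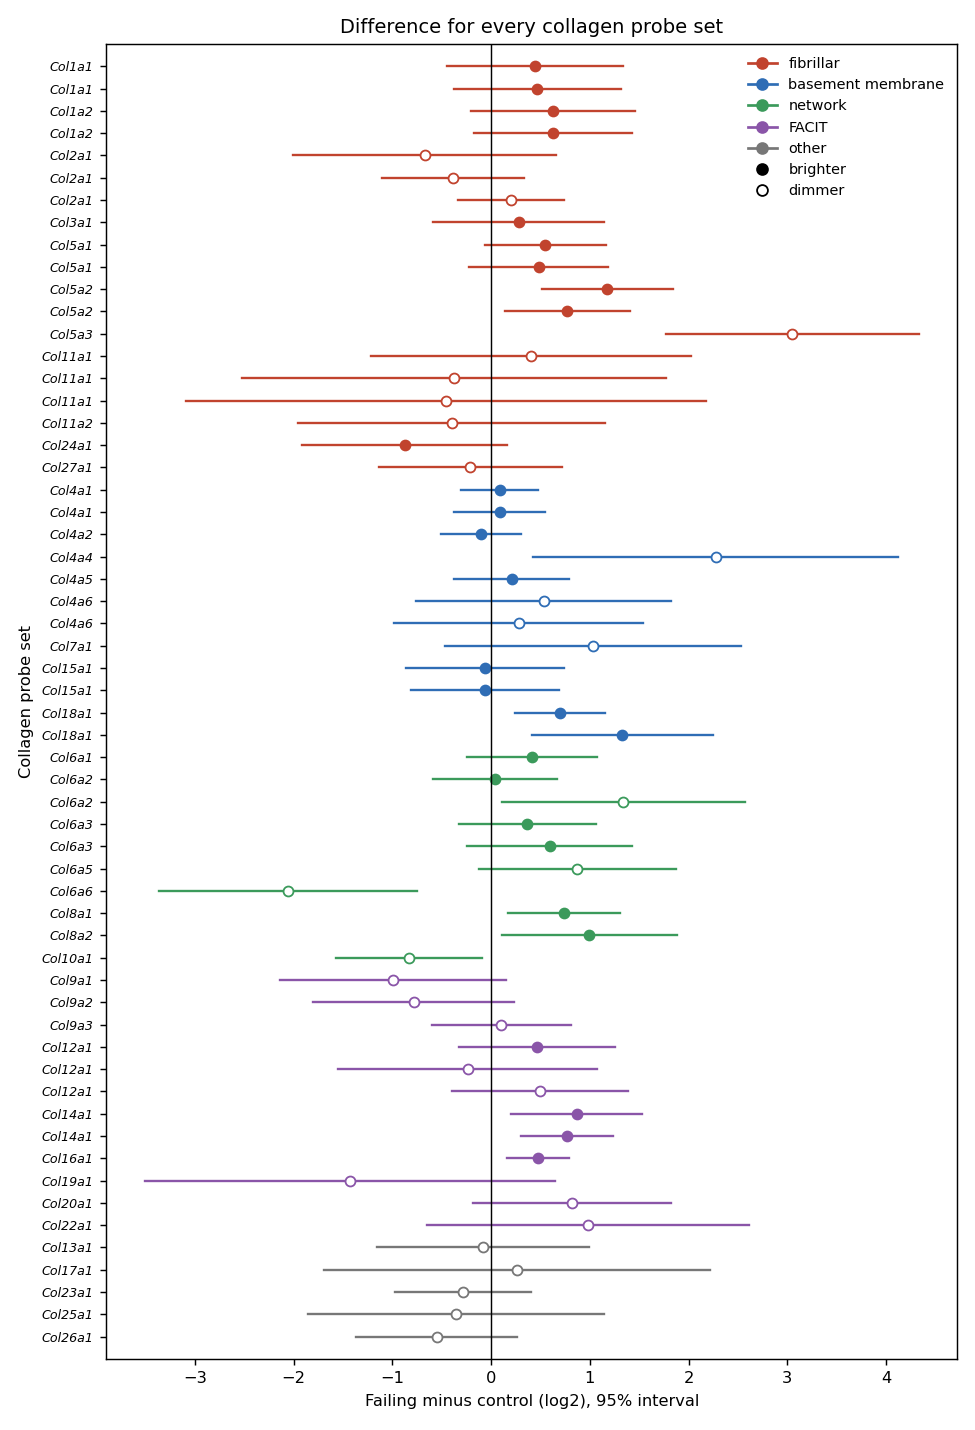
Difference between failing and control hearts for each of the 58 collagen probe sets (x axis, log2, points, with 95% intervals from limma as lines), grouped by class in colour, with filled points for the 28 brighter probe sets and open points for the 30 dimmer ones. Filled points lie mostly to the right of 0, the Col4a1, Col4a2 and Col15a1 points lie near 0, and the widest intervals belong to open points.

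Among the brighter fibrillar collagens, Col5a2 had the largest differences, and the chains of types I and III varied widely within the failing group. Col5a2 encodes a chain of the type V molecule. Its brighter probe set ran from 11.28 through a median of 12.40 to 12.97 in failing hearts and from 10.33 through 11.11 to 11.38 in control hearts. All but 1 failing heart lay above every control heart, the exception being replicate 5, and the groups overlapped only there. The difference was 1.18 ± 0.30 (SE, n = 6 per group, a 2.26-fold rise, limma adjusted p = 0.0399 among the brighter probe sets). That call held without Failing replicate 1 or 5 or Control replicate 4 and ended without any of the other 9 hearts (limma adjusted p from 0.0101 to 0.0925 over the 12 fits). It also ended with a dimness filter at the 25th percentile in place of the median (limma adjusted p = 0.0988) and by the exact permutation test (adjusted p = 0.0893). Over the 12 single-heart fits the difference ran from 1.02 to 1.36, with a limma unadjusted p under 0.05 in each. The 3 fits that kept the call had 334, 804 and 1035 of all brighter probe sets called higher. The other 9 fits had from 20 to 222. The second Col5a2 probe set went the same way, averaging 11.48 ± 0.68 in failing hearts and 10.71 ± 0.29 in controls (SD, n = 6), and did not pass (0.77 ± 0.29, limma adjusted p = 0.101).

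Col5a1, the partner chain of Col5a2, differed by 0.55 ± 0.28 (95% interval -0.06 to 1.16, limma adjusted p = 0.201) and 0.48 ± 0.32 in its 2 probe sets. In the brighter of them failing hearts ran from 8.89 through 9.67 to 10.56 and control hearts from 8.73 through 9.05 to 9.70, with 2 failing hearts above every control heart. Col5a3, another chain, found in some type V molecules, was dim. It ran from 5.18 through 6.37 to 8.10 in failing hearts and from 2.43 through 3.07 to 5.55 in control hearts, with 4 failing hearts above every control heart. Its difference of 3.05 ± 0.59 was the largest of the 58 in size and gave the lowest collagen adjusted p over all probe sets, 0.113 by limma. Among the 12 single-heart fits it passed only without Failing replicate 5, the lowest failing heart (limma adjusted p = 0.0454). In the others the limma adjusted p ran up to 0.244, without Control replicate 1. At intensities this close to the bottom of the scale the size of a difference is uncertain, and no fold is given. With an offset of 32 added to every intensity the difference was 1.45.

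Type I is the most abundant fibre of the heart, built from Col1a1 and Col1a2 chains. The brighter Col1a1 probe set ran from 10.64 through 12.11 to 13.09 in failing hearts and from 10.80 through 11.63 to 12.42 in control hearts. The failing group therefore held both the highest hearts and the lowest one. Its difference was 0.44 ± 0.41 (95% interval -0.45 to 1.34, limma adjusted p = 0.487), and the second probe set gave 0.47 ± 0.39. The brighter Col1a2 probe set ran from 11.35 through 13.00 to 13.80 in failing hearts and from 11.68 through 12.37 to 12.79 in control hearts. There 4 failing hearts lay above every control heart and 1, replicate 1, below them all. The difference was 0.62 ± 0.38 (95% interval -0.21 to 1.46, limma adjusted p = 0.28), and 0.63 ± 0.36 in the second probe set.

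Col3a1, which encodes the only chain of type III, ran from 12.26 through 14.08 to 14.70 in failing hearts and from 12.83 through 13.75 to 14.22 in control hearts. Here 2 failing hearts lay above all control hearts and replicate 1 below them. The difference of 0.28 ± 0.40 did not pass, with a 95% interval from -0.59 to 1.15 that allows a rise as large as that of Col5a2's second probe set (limma adjusted p = 0.667). Col3a1 and Col5a2 are direct neighbours on chromosome 9, with 0 annotated genes between them. Of the other fibrillar genes, Col24a1 was the 1 brighter gene on the lower side. Its failing hearts averaged 6.66 ± 0.90 and its control hearts 7.54 ± 0.85 (SD, n = 6), a difference that did not pass (-0.88 ± 0.48, limma adjusted p = 0.229). The probe sets of Col2a1, Col11a1, Col11a2 and Col27a1, of which types II and XI are known from cartilage, were all dim. Their differences lay between -0.67 and 0.40 with 0 at an unadjusted p under 0.05, and the 3 probe sets of Col2a1 and the 3 of Col11a1 did not share a direction.

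**Figure D2:**
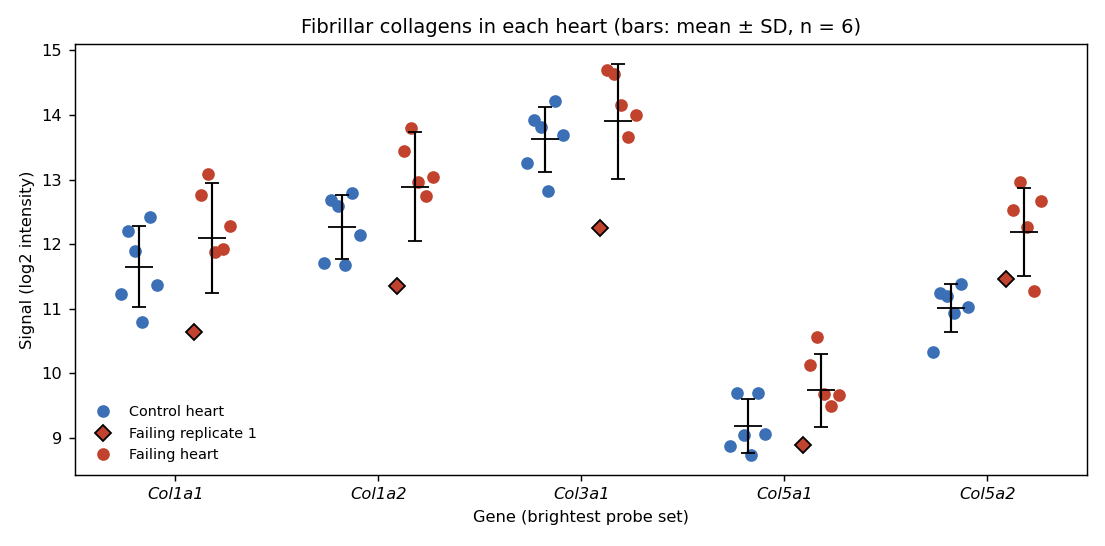
Signal of the brightest probe set of 5 fibrillar collagen genes (x axis) in each control (blue) and failing (red) heart, as log2 intensity (y axis), with black bars for the mean ± SD of 6 hearts and a diamond for Failing replicate 1. The diamond is the lowest of all 12 hearts for Col1a1, Col1a2 and Col3a1, while for Col5a2 it lies above every control heart.

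Failing replicate 1 stood apart within its group for most collagens. It was the lowest failing heart in 24 of the 28 brighter probe sets and the lowest of all 12 hearts in 12 of them, among them all 5 probe sets of Col1a1, Col1a2 and Col3a1. Failing replicate 3 was the highest failing heart in 21 of 28 and the highest of all 12 in 20. Among control hearts, replicate 5 was the highest in 18 of 28, and replicates 1 and 4 were the lowest in 13 and 11. The spread between hearts was wider in failing than in control hearts for 23 of the 28 (82.1%, against 49.4% of all brighter probe sets), with a median SD of 0.66 against 0.43. Without Failing replicate 1 this was 13 of 28 (46.4%, against 44.4% of all brighter probe sets), and the median SD in failing hearts was 0.41. That heart was picked for its low values in these same probe sets, so a narrower spread without it follows from the choice.

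Without that heart, 18 of the 58 collagen probe sets were higher at an unadjusted p under 0.05, in place of 12, and 3 were called higher among the brighter ones, where 334 of all brighter probe sets were called higher in place of 429. The median difference was 0.57 in place of 0.32. The limma adjusted p was 0.171 for Col1a1 (0.73), 0.061 for Col1a2 (0.93) and 0.171 for Col3a1 (0.61), each in its brightest probe set, so that these chains still did not pass. Leaving out other hearts moved the differences both ways. Without Control replicate 5 they rose to 0.60 for Col1a1, 0.73 for Col1a2 and 0.40 for Col3a1, in the same probe sets. They fell to 0.24 for Col1a1 and 0.44 for Col1a2 without Failing replicate 3, and to 0.12 for Col3a1 without Failing replicate 2. Failing replicate 1 had the highest 3′ minus 5′ difference of the Gapdh and beta-actin control probe sets among failing hearts. It was 0.698 (log2) against 0.503 to 0.534 in the other 5, with 0.360 to 0.778 in control hearts. With this difference as a covariate the counts were unchanged, at 2 called higher among the brighter and 12 higher and 2 lower at an unadjusted p under 0.05.

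**Figure D3:**
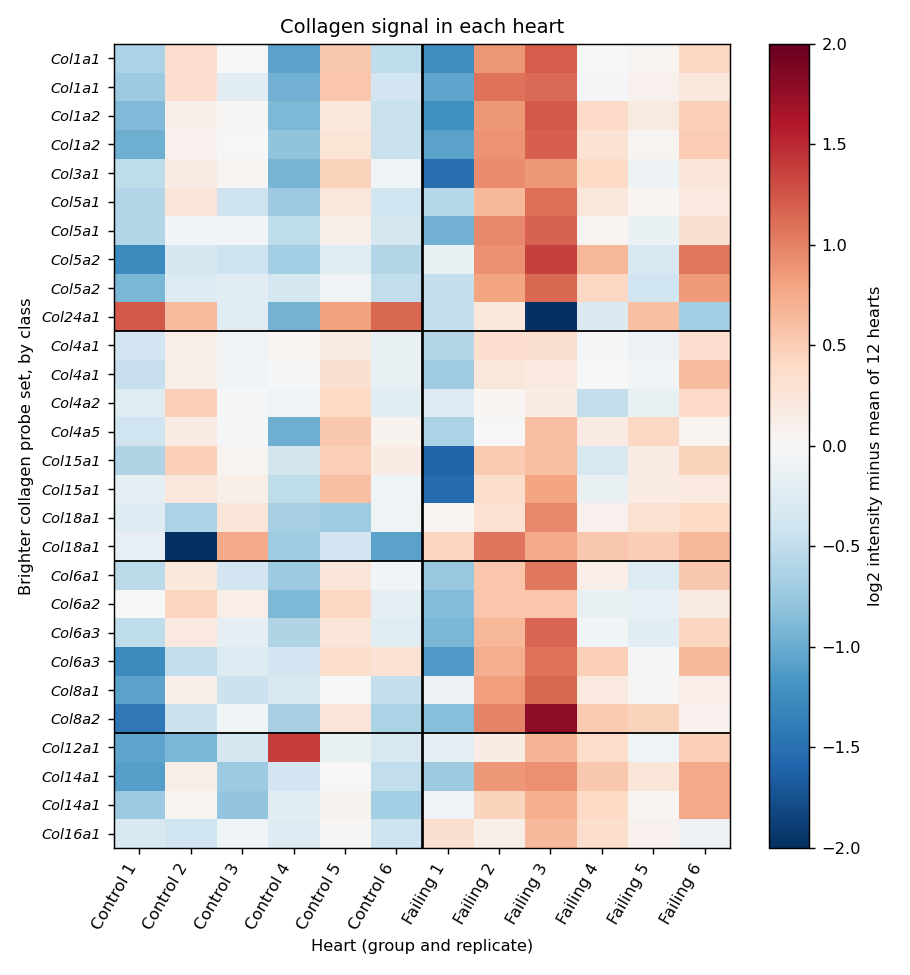
Each of the 28 brighter collagen probe sets (rows, by class, separated by lines) in each of the 12 hearts (columns), coloured by log2 intensity minus the mean of the 12 hearts, with the deepest colours standing for that value or beyond. Failing replicate 1 is blue in most rows, Failing replicates 2 and 3 are red in most rows but not replicate 3 for Col24a1, and the rows of Col4a1 and Col4a2 are paler than those of Col1a1 and Col1a2.

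The basement membrane collagens were split. Col4a1 and Col4a2 encode the chains that co-assemble into the common type IV molecule, and they lie head to head across the interval of 76 bases printed above. The brighter Col4a1 probe set ran from 11.61 through 12.33 to 12.52 in failing hearts and from 11.81 through 12.17 to 12.37 in control hearts. Col4a2 ran from 10.90 through 11.33 to 11.76 and from 11.14 through 11.33 to 11.85. For Col4a1, 3 failing hearts lay above every control heart and replicate 1 below them all, while for Col4a2 no failing heart lay above the controls. The differences were 0.09 ± 0.18 (95% interval -0.31 to 0.48) for Col4a1, 0.08 ± 0.21 for its second probe set and -0.11 ± 0.18 (95% interval -0.51 to 0.30) for Col4a2, so rises of the size measured for Col5a2's brighter probe set lie outside these intervals (limma adjusted p from 0.736 to 0.821). Col4a5, a chain of a second type IV molecule, gave 0.21 ± 0.27. Col15a1, whose protein lies at the outer face of muscle and vessel basement membranes, gave -0.06 ± 0.37 and -0.06 ± 0.34.

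Col18a1, whose protein carries endostatin at its end, was the basement membrane gene with the smallest p. Its probe set ran from 8.60 through 8.84 to 9.51 in failing hearts and from 7.84 through 8.10 to 8.78 in control hearts. In 4 failing hearts it lay above every control heart, and 5 control hearts lay below every failing heart. The difference of 0.70 ± 0.21 fell just short (1.62-fold, limma adjusted p = 0.0542). Among the 12 single-heart fits it passed only without Control replicate 3, the highest control heart (limma adjusted p from 0.0477 to 0.111). The second probe set gave 1.33 ± 0.42 (limma adjusted p = 0.0622), with control hearts spread from 5.86 to 9.04. It too passed only without that heart, its highest control (limma adjusted p from 0.0468 to 0.125). Col4a4, a dim type IV chain, averaged 6.03 ± 0.87 in failing hearts and 3.75 ± 2.05 in controls (SD, n = 6, limma unadjusted p = 0.0204, adjusted p = 0.257). Col4a6 and Col7a1 were dim too, at 0.53 ± 0.59 and 0.28 ± 0.58 for Col4a6 and 1.03 ± 0.69 for Col7a1.

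In the network class, the lattice collagens of type VIII lay higher without passing. Col8a1, known from vessel walls and remodelling tissue, ran from 11.08 through 11.36 to 12.34 in failing hearts and from 10.12 through 10.82 to 11.29 in control hearts, with 4 failing hearts above all controls (0.74 ± 0.26, 1.67-fold, limma adjusted p = 0.0851). Col8a2 ran from 8.99 through 10.34 to 11.63 and from 8.41 through 9.32 to 10.10 (1.00 ± 0.41, limma adjusted p = 0.124). The 3 main chains of type VI, the microfibrils around cells, differed by less. Col6a1 ran from 10.37 through 11.46 to 12.17 in failing hearts and from 10.39 through 10.90 to 11.37 in control hearts (0.42 ± 0.30, limma adjusted p = 0.365). Col6a2 ran from 9.63 through 10.52 to 11.05 and from 9.59 through 10.56 to 10.93 (0.04 ± 0.29, limma adjusted p = 0.947), and turned to -0.14 without Control replicate 4 and to -0.07 without Failing replicate 2 or 3. Col6a3 ran from 10.48 through 11.59 to 12.56 and from 10.80 through 11.18 to 11.65 (0.37 ± 0.32), with 0.59 ± 0.38 in its second, less bright probe set.

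Both collagens below control at an unadjusted p under 0.05 were dim network collagens. Col6a6 ran from 1.49 through 2.57 to 4.35 in failing hearts and from 3.14 through 5.47 to 5.80 in control hearts (-2.06 ± 0.60, limma adjusted p = 0.176 over all probe sets), and the difference was -0.68 with the offset of 32. Col10a1, known from growth cartilage, ran from 3.41 through 5.33 to 5.71 and from 5.82 through 5.90 to 6.15. It was the 1 collagen probe set whose groups did not overlap, all 6 failing hearts lying below all 6 control hearts, where 0.535% of all probe sets were separated in that direction and 0.989% in the other. Its difference was -0.83 ± 0.34 (limma unadjusted p = 0.0305, adjusted p = 0.29). It was -0.49 without Failing replicate 3, the lowest heart, and -0.44 with the offset of 32. A dim Col6a2 probe set was on the higher side (1.34 ± 0.56, limma unadjusted p = 0.0353), as was Col6a5 (0.87 ± 0.46).

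The FACIT class held the second call. Col14a1 encodes a collagen that binds the surface of type I fibres. Its called probe set ran from 9.08 through 9.57 to 9.90 in failing hearts and from 8.35 through 8.70 to 9.22 in control hearts. In 4 failing hearts it lay above every control heart, and the groups overlapped only in the lowest failing and highest control hearts. The difference was 0.77 ± 0.21 (1.70-fold, limma adjusted p = 0.0465), a call that, like that of Col5a2, held without Failing replicate 1 or 5 or Control replicate 4 and ended without any of the other 9 hearts (limma adjusted p from 0.0286 to 0.105). It too ended with the filter at the 25th percentile (limma adjusted p = 0.108) and by the exact permutation test (adjusted p = 0.111). Over the 12 single-heart fits the difference ran from 0.68 to 0.86, with a limma unadjusted p under 0.05 in each. The second, brighter Col14a1 probe set gave 0.87 ± 0.30 (limma adjusted p = 0.083), from 10.56 through 11.94 to 12.20 in failing and from 10.19 through 10.85 to 11.41 in control hearts.

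Col16a1 ran from 8.86 through 9.18 to 9.61 in failing hearts and from 8.56 through 8.69 to 8.99 in control hearts, with 5 failing hearts above every control heart (0.47 ± 0.15, 1.39-fold, limma adjusted p = 0.0585). Col12a1, another fibre-surface collagen, gave 0.46 ± 0.36 in its brighter probe set, where Control replicate 4 at 9.25 lay above all failing hearts. Without that heart it was 0.79, with a limma adjusted p of 0.0267. This was the 1 call in 12 single-heart fits, where the limma adjusted p ran up to 0.637. That heart was picked for its high value in this probe set, so a larger difference follows from the choice. Without it, 1035 of all brighter probe sets were called higher and 1048 lower. The 2 dim Col12a1 probe sets gave -0.24 ± 0.60 and 0.50 ± 0.41. The FACIT genes Col9a1, Col9a2, Col9a3, Col19a1, Col20a1 and Col22a1 were dim, with differences from -1.43 to 0.98 and 0 at an unadjusted p under 0.05. In the fifth class, Col13a1, Col17a1, Col23a1, Col25a1 and Col26a1 were all dim, from -0.55 to 0.26, and Col26a1 had its smallest p (7.11 ± 0.60 in control and 6.55 ± 0.76 in failing hearts, SD, n = 6, limma unadjusted p = 0.166).

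By class, the median difference of the brighter probe sets was 0.51 for 10 fibrillar, 0.09 for 8 basement membrane, 0.51 for 6 network and 0.62 for 4 FACIT probe sets. Of the 14 genes with several probe sets, 11 gave 1 direction in all of them, and all 9 genes with more than 1 brighter probe set did. Probe sets of 1 gene share its transcripts and are not independent.

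Chains that build 1 molecule were also compared within each heart, as the log2 ratio of their brightest probe sets, for 6 ratios chosen after the values were seen. Such a ratio shows unequal change and not the amount of either chain. Differences of ratios carry an ordinary SE from the variances of both groups, without limma's moderation. The ratio of Col5a2 to Col5a1 was 2.46 ± 0.40 in failing and 1.83 ± 0.31 in control hearts (SD, n = 6), higher by 0.63 ± 0.21 with 5 failing hearts above all controls (exact permutation p = 0.013, adjusted p = 0.0779 over the 6). Other combinations of their probe sets gave differences from 0.22 to 0.70 (exact permutation p from 0.00433 to 0.281). The ratio of Col6a1 to Col6a2 was higher by 0.38 ± 0.16 (exact permutation p = 0.0433, adjusted p = 0.13). The ratios of Col1a1 to Col1a2 (-0.18 ± 0.10, exact permutation p = 0.108) and of Col4a1 to Col4a2 (0.19 ± 0.13, exact permutation p = 0.175) differed by less, as did those of Col6a1 to Col6a3 and Col8a1 to Col8a2 (exact permutation p = 0.498 and 0.32). None passed after adjustment.

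The genes that make, shape and remove collagen were read from 7 lists, beside the same background of 2.76% of brighter probe sets called higher and 1.48% called lower. In the list for hydroxylation, folding and secretion, 2 of 27 brighter probe sets were called higher and 0 lower, for P3h3 (0.89 ± 0.25), of the prolyl 3-hydroxylase family, and P3h4 (0.61 ± 0.13), while the collagen chaperone Serpinh1 was at -0.59 ± 0.36 (limma adjusted p = 0.286). In the list for propeptide removal and cross-linking, 2 of 11 were called higher and 0 lower. These were the cross-linking enzyme Lox (1.55 ± 0.38, limma adjusted p = 0.033) and the procollagen C-proteinase Bmp1 (0.76 ± 0.17, limma adjusted p = 0.0277).

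Proteins that bind or organise collagen fibres had the most calls, 12 of 23 brighter probe sets higher and 0 lower, with a median difference of 0.84. The largest rises were those of Comp (2.29 ± 0.61, limma adjusted p = 0.042), fibronectin Fn1 (1.80 ± 0.41, limma adjusted p = 0.029) and dermatopontin Dpt (1.39 ± 0.30, limma adjusted p = 0.0276). Genes of collagen breakdown and its inhibitors had 9 of 18 higher and 0 lower, with a median difference of 0.66. Their largest rises were the inhibitor Timp3 (1.29 ± 0.34, limma adjusted p = 0.04) and the collagen-cleaving cathepsin Ctsk (1.22 ± 0.27, limma adjusted p = 0.0276), with Ctss (1.23 ± 0.29, limma adjusted p = 0.0303) between them. Of the collagen receptors 1 of 8 was called higher, Itgb1, the beta chain of collagen-binding integrins (0.52 ± 0.15), and of the transcriptional regulators 1 of 21, Runx1 (1.07 ± 0.30). The laminin chains Lama5 (0.96 ± 0.22) and Lamb1 (0.45 ± 0.12) were called among 18 probe sets of basement membrane partners of type IV collagen, with 0 lower in each of these 3 lists. Leaving out 1 heart moved the 2 largest counts widely, from 1 to 14 of 23 and from 0 to 13 of 18, lowest without Failing replicate 3 and highest without Failing replicate 5 in both. The other 5 lists fell to 0 calls without Failing replicate 2 or 3. Calls over all 15521 brighter probe sets moved as well, from 429 higher with all hearts to 36 without Failing replicate 3. They were 222 without Failing replicate 2 and 804 without Failing replicate 5.

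**Figure D4:**
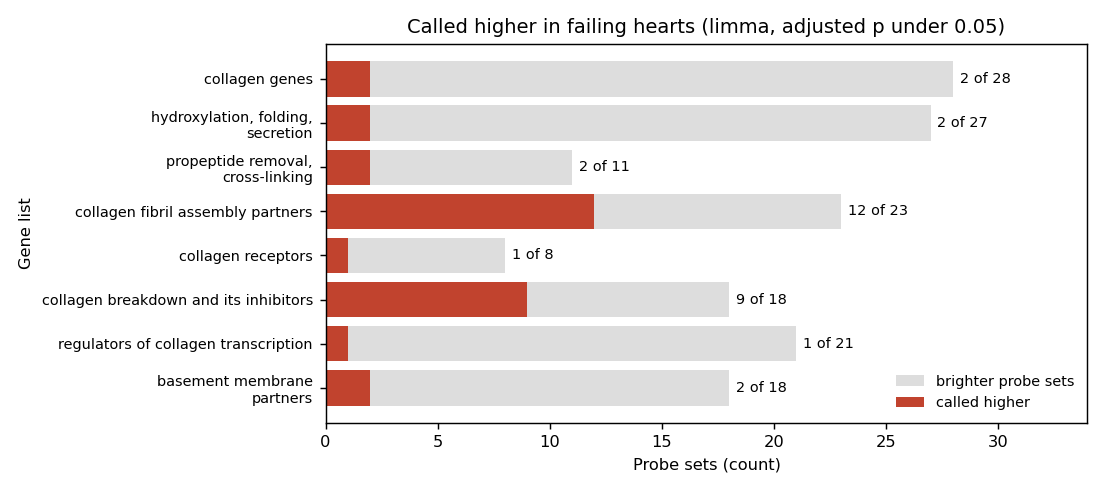
Number of brighter probe sets (grey bars, x axis, count) and of those called higher in failing hearts by limma (red bars) in the collagen genes and in each of 7 lists of genes that act on collagen (y axis). The collagen genes have 2 of 28 called, the fibril assembly partners 12 of 23 and the breakdown genes with their inhibitors 9 of 18.

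Fibroblast, myofibroblast and macrophage markers had several calls, and the other cell marker lists had at most 1 in each direction. The background was again 2.76% of brighter probe sets called higher and 1.48% called lower. Some marker lists share genes with each other and with the 7 lists above, so their calls are not independent. Dcn, Lum, Ddr2, Fap, Postn, Comp and Meox1 are each in a marker list and in 1 of those 7. The summed intensity of 11 measured fibroblast genes, of 12 listed, ran from 56787 to 86154 in failing and from 41151 to 50306 in control hearts without overlap, with 4 of 14 brighter probe sets called higher. Failing replicate 1, the lowest heart for types I and III, stood at 61665, above every control heart. The sum of 13 macrophage genes, of 13 listed, ran from 22166 to 53446 in failing and 15148 to 28322 in control hearts (5 of 13 called higher). The 7 myofibroblast genes, all measured, ran from 7560 to 17373 and from 4252 to 6862 without overlap (2 of 5 called higher). The sum of 12 smooth muscle and pericyte genes, of 12 listed, ran from 35731 to 40838 and 29734 to 37552 (0 higher, 1 lower of 16), and that of 10 endothelial genes, of 11 listed, from 16227 to 21679 and 14892 to 18018 (1 higher, 1 lower of 13). None of these 5 lists held a gene with a mean intensity under 50. For T, B and NK cell genes, 9 of 11 listed were measured, and Control replicate 4 stood at 14797 against 644 to 885 in the other control hearts and 421 to 1055 in failing hearts, with Cd3d, Cd8a, Cd79b and Ms4a1 under a mean intensity of 50. Cartilage genes summed to between 252 and 1045 in failing and 201 and 633 in control hearts, with 1 brighter probe set, that of Comp, and with Chad and Cnmd under 50. Adipocyte genes ran from 11245 to 13451 and 13263 to 17653, and skeletal muscle genes from 21781 to 51811 and 25258 to 62846, with 0 calls in both lists. Adipoq, Lep, Plin1, Cidec, Myh2, Myh4 and Actn3 were under 50. Only 2 adipocyte and 3 skeletal muscle genes had a brighter probe set, and Ckm is also listed for cardiomyocytes. Schwann and neural genes ran from 473 to 723 and 402 to 812, and epicardial and mesothelial genes from 718 to 878 and 642 to 906. Both had 0 calls as well, and Krt19 of the epicardial list was under 50. Cardiomyocyte genes ran from 235227 through a median of 311054 to 375952 in failing hearts and from 229672 through 364295 to 378886 in control hearts, lowest in Control replicate 4. Limma called 0 of their 13 brighter probe sets. Of all 15, 0 were higher and 4 lower at an unadjusted p under 0.05, against 7.25% and 7.23% of all probe sets. At that threshold, higher and lower counts were 7 and 1 of 17 for fibroblast and 4 and 0 of 7 for myofibroblast genes. They were 10 and 0 of 14 for macrophage and 6 and 2 of 19 for smooth muscle and pericyte genes. For endothelial genes they were 5 and 3 of 14, and for skeletal muscle genes 1 and 4 of 12. The part of these cells in the collagen values was not tested.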

How the data were processed

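Total RNA from 12 rat hearts was hybridised as biotin-labelled cRNA, per the labels' protocols. The authors deposited 1 table of linear intensity values (0.1 to 79913.6) for 31099 probe sets, with 0 columns of unknown sample. RMA is listed, without a version, in the submitters' processing notes. The values are linear and share a trimmed mean of 500.19 to 500.23, unlike usual RMA output, so how probes were summarised is unknown. Such scaling hides a change common to most genes. Precision is limited by the number of arrays.

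The deposited intensities were turned into log2 values without an offset, 57 control probe sets were left out, and 31042 were fitted with limma 3.58.1 in R 4.3.3 (group as the only term, Benjamini-Hochberg adjustment, threshold 0.05, two-sided), again within the 15521 brighter ones. The annotation gave 1 symbol for 20826, several for 436 and none for 9780 of these, and all 41 collagen symbols matched RefSeq of GRCr8 by gene identifier. Exact permutation tests used all 924 arrangements of 6 and 6 hearts, with a smallest p of 0.00216. The fit was tested on simulated data.

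The members and lists were chosen with earlier results of these data known. Given in full were called probe sets, brighter ones of types I, III, IV (Col4a1 and Col4a2), V and VI, the smallest p of each class and members without overlap, and from each list up to 3 called genes, or the smallest p. Serpinh1 and the other members given by heart were added after their values were seen. Alternatives covered the variance model, array weights, normalization, offset, replicate number, RNA quality, filter, test, threshold, probe set summary and leaving out each heart. Figures were drawn with matplotlib 3.10.9.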

Additional observations from a re-analysis of the deposited data

Results flagged for a closer look

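Of 44 groups of 6 hearts examined for the 22 probe sets chosen by the naming rule, 2 held a heart far from the other 5, and chance gives about 1 in 20 such groups. Control replicate 5 was the highest control heart for Col5a3, at 5.55 (log2) with the next at 3.32. Failing replicate 3 was the lowest failing heart for Col10a1, at 3.41 with the next at 5.15. Both probe sets are dim.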

How the results depend on the processing

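Limma called 2 collagen probe sets higher among the brighter ones, a count of 0 at an adjusted p of 0.01, 7 at 0.10, 5 with an intensity trend in the variance, 9 with array weights, 4 with an offset of 32, 4 with the mean of each gene's probe sets, 0 with a filter at the 25th percentile and 0 by the exact permutation test. The filter fits more dim probe sets and the permutation test has a coarse smallest p. What caused any of these changes was not tested. With the trend, 3 passed over all probe sets (Col5a3, Col5a2 and Col14a1, adjusted p = 0.0241, 0.0323 and 0.0468), where the fit without it gave 0, and the count lower at an unadjusted p under 0.05 was 1, as with the 25th percentile filter, in place of 2. With the replicate block 2 were called higher, Col5a2 and Col18a1, so the Col14a1 call ended and that of Col18a1 appeared. Same-numbered hearts had deviations correlated between -0.06 and 0.232, over 0.1 for 1 of 6 numbers, so the numbers were not taken as pairs. Without each heart in turn, the called count ranged from 0 to 4, the count over all probe sets from 0 to 1, the counts at an unadjusted p under 0.05 from 11 to 18 higher and from 1 to 4 lower, and the median difference from 0.16 to 0.57. The count called lower was 0 throughout. Only Col6a2 (-0.14 to 0.215) and the second Col4a1 probe set (-0.0299 to 0.235) changed sign in these fits, among the 22 probe sets chosen by the naming rule.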
